A study of Mus musculus with 7 samples.

Results

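The ADAM sheddases, their substrate CD23 and genes of the Notch pathway were examined in light zone germinal centre B cells of mice. The samples carry the genotype label MIZ1KO or Control. The set has 9 genes: the protease genes Adam8, Adam10, Adam15, Adam17 and Adam19, Fcer2a, which encodes CD23, the receptor genes Notch1 and Notch2, and Rbpj. They were selected by name, with earlier MIZ1KO against Control fold changes of these same libraries already known, so their values below are a description and support nothing by themselves. All 9 genes are among the 48795 identifiers of the count table, and 7 of them passed the filter on low counts that 11618 genes passed. Adam8 and Adam15 did not pass it.

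Mice of both groups had been injected intravenously with sheep red blood cells, and light zone germinal centre B cells were sorted from their spleens at day 10 for bulk RNA sequencing of polyA RNA. Of the 7 samples, 3 carry the genotype label MIZ1KO, with MizFF in their titles, and 4 the label Control, with eYFP in theirs. MIZ1 is the zinc finger transcription factor encoded by Zbtb17. The sources used here do not give the promoter driving any recombinase, the age of the mice, or whether each sample is a separate mouse, so p-values measure the spread among samples that may be technical repeats.

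ADAM proteases are membrane-bound enzymes with a zinc metalloprotease domain that cut other membrane proteins near the cell surface, a step called ectodomain shedding. ADAM10 makes the ligand-dependent surface cut of Notch receptors, after which gamma-secretase frees the intracellular domain to join RBPJ on DNA. ADAM10 is also the principal sheddase of CD23, the low-affinity IgE receptor of B cells, which binds the complement receptor CD21. In mouse B cells NOTCH2 signalling is required for marginal zone B cells, and CD23 is a surface marker of follicular B cells that is lower on germinal centre B cells.

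Library totals ranged from 6896673 to 9482453 counts, of which 3087992 to 5085019 lay outside ribosomal RNA. Values are given as counts scaled to 1e6 per library after TMM adjustment (CPM). Models of the TEC class (GENCODE's transcript models that await experimental tests) had a share of 0.690% ± 0.204 (SD) across the 3 MIZ1KO libraries and 1.79% ± 0.653 (SD) across the 4 Control libraries once ribosomal RNA was set aside, and the groups did not overlap. Zbtb17 measured 4.45 ± 0.732 CPM in MIZ1KO and 4.18 ± 1.89 CPM in Control; the counts cover the whole gene, so this does not check the labels. The germinal centre gene Bcl6 lay between 209.98 and 297 CPM and the light zone gene Cd83 between 227 and 382 CPM, so both defining markers were present in all 7 libraries. Summed T cell markers (14 genes) ranged from 44.8 to 60.3 CPM in MIZ1KO and from 26.8 to 33.2 CPM in Control, and, without Lck (left out after its values were seen), from 4.41 to 29.4 CPM and from 0.525 to 2.41 CPM. The T cell receptor subunit Cd3e measured 0.645, 3.10 and 8.37 CPM in MIZ1KO replicates 1, 2 and 3 and at most 0.401 CPM in Control. Summed myeloid markers (16 genes, 2 at 0 throughout) ranged from 9.13 to 32.2 CPM in MIZ1KO and from 7.87 to 16.3 CPM in Control. Erythroid and platelet markers (9 genes) summed to between 61.4 and 493 CPM in MIZ1KO and between 117 and 427 CPM in Control. For plasma cell markers (8 genes) the sums were 252 to 344 CPM and 306 to 497 CPM.

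Of the 7 tested genes, Adam19 alone rose past an adjusted p of 0.05 in the quasi-likelihood test of edgeR (1 of 7), while 1.9% of all tested genes were called higher. None of the 7 was called lower (0 of 7), against 4.05% of all tested genes. At an unadjusted p under 0.05, 2 were higher and 1 was lower, where 9.92% and 14.7% of all tested genes were. DESeq2 called 1 higher and 0 lower, against 3.53% and 5.4% of the same tested genes, and limma-voom 0 in either direction, against 1.09% and 1.85%. In Adam19 and Notch2 the MIZ1KO and Control libraries did not overlap (2 of 7), a property shared by 19.5% of all tested genes. The median log2 fold change of the 7 was 0.14, and that of all tested genes was -0.03. Nothing is read from these counts, since the set was proposed on this contrast. As these are bulk samples, fewer cells of a type and less RNA per cell cannot be told apart.

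**Figure D1:**
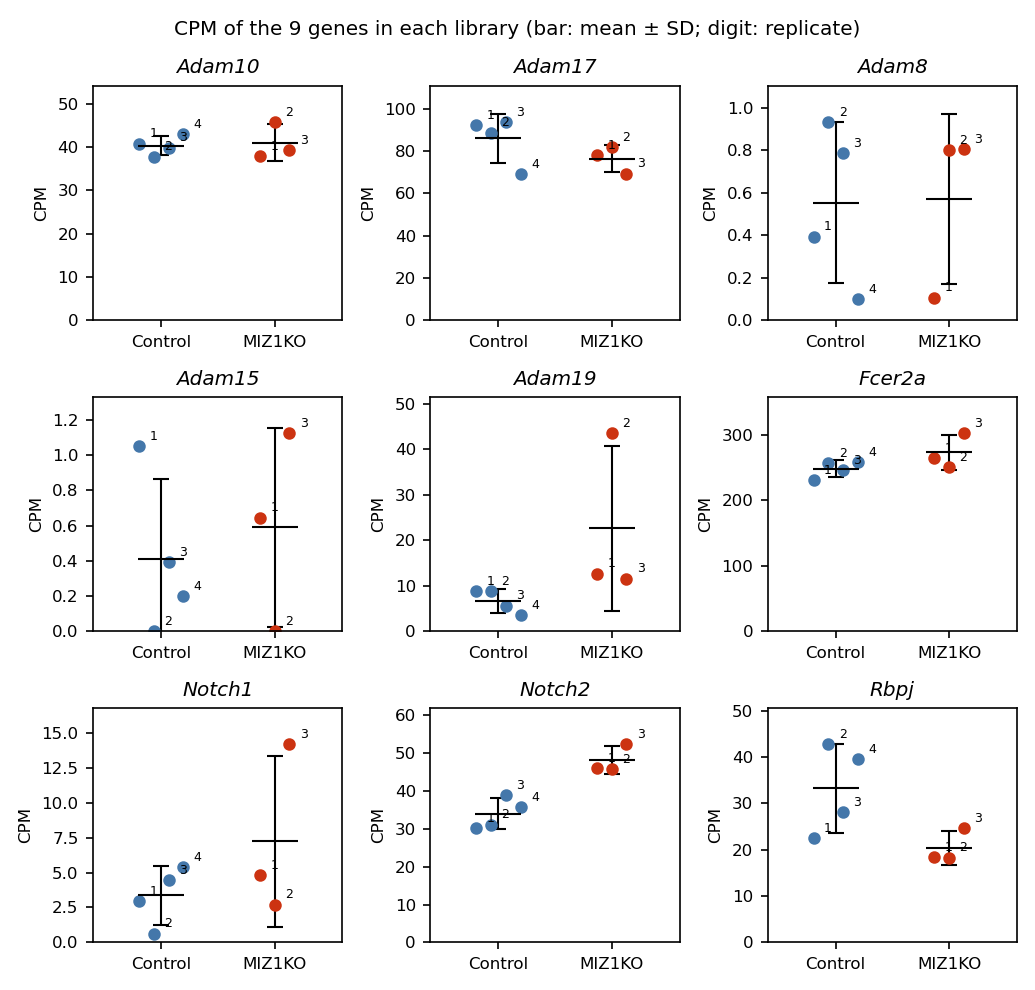
CPM of each of the 9 genes in every library, with Control in blue and MIZ1KO in red, the replicate number beside each point, and the mean ± SD in black (bars are cut at 0). Adam19 is set apart by MIZ1KO replicate 2 at 43.7 CPM, Notch2 separates the groups, and Fcer2a, Adam10 and Adam17 overlap.

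Adam19, which encodes meltrin beta, a protease known for cutting neuregulin, rose in MIZ1KO. It measured 12.7, 43.7 and 11.6 CPM in MIZ1KO replicates 1 to 3, and 8.92, 8.87, 5.64 and 3.50 CPM in Control replicates 1 to 4. Every MIZ1KO library lay above every Control library, but replicate 2 stood far above the other MIZ1KO libraries. The means were 22.6 ± 18.2 CPM (SD, n = 3) and 6.73 ± 2.64 CPM (SD, n = 4), and the log2 fold change was 1.82 ± 0.45 (SE) with an adjusted p of 0.0273 in edgeR. Without MIZ1KO replicate 2 it was 0.96 and the call ended (adjusted p = 0.173, edgeR). Omitting MIZ1KO replicate 1, Control replicate 2 or Control replicate 4 ended it too, with adjusted p-values of 0.0528, 0.0544 and 0.0841 in edgeR, while the log2 fold change lay at 2.16, 1.96 and 1.61. With the TEC share as a covariate it was 0.65 (adjusted p = 0.752), a share that did not overlap between the groups and so cannot be told apart from genotype. In the deposited log2 values the group means were 6.88 and 6.04, a difference of 0.84 (adjusted p = 0.0507, limma). Those values are on a transformed scale, named as variance stabilised, so this size is not comparable with the edgeR fold changes. Of the 14 T cell markers, 4 were highest in MIZ1KO replicate 2, as Adam19 was (Cd3d, Cd3g, Trbc1 and Cd28), 9 in replicate 3 and 1, Lck, in replicate 1; the part of other cell types in the Adam19 result was not tested.

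**Figure D2:**
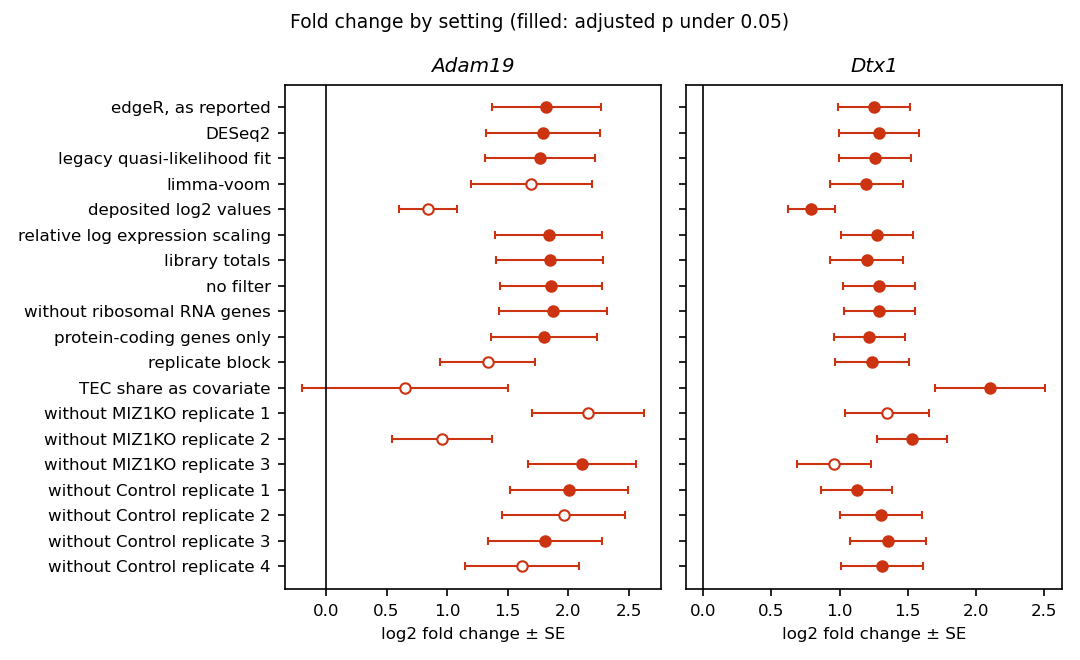
Log2 fold change of MIZ1KO over Control with its SE for Adam19 and Dtx1 under each of 19 settings, filled where the adjusted p was under 0.05. Adam19 kept a positive value throughout, from 0.65 to 2.16, with the smallest values for the TEC covariate, the deposited log2 values and the fit without MIZ1KO replicate 2. The deposited log2 values are on a different, transformed scale.

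Adam19 (ENSMUSG00000011256) lies on chromosome 11 from 46055992 to 46147343 on the plus strand of GRCm38, where its model overlaps Gm16033, Gm16034 and Mir8100, so reads in those overlaps may be shared. For 2 of its 3 RefSeq starts on GRCm38.p6 the sequence shown is the 250 bases before the start, because Adam19 is the called gene of the set. The letters CACGTG, the palindromic E-box read by MYC and MAX, and TGGGAA, the core read by RBPJ, were searched on both strands, and matches are in capitals.
Adam19, chr11:46054252-46054501, plus strand: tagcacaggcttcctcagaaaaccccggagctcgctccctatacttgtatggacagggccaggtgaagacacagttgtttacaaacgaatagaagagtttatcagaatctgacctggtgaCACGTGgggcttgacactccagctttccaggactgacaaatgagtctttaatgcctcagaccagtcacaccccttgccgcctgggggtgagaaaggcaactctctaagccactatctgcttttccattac
Adam19, chr11:46055734-46055983, plus strand: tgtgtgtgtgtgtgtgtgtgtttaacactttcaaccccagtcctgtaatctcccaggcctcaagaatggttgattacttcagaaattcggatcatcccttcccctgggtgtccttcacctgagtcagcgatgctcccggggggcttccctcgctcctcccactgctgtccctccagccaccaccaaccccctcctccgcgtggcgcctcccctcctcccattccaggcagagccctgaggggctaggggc
The farther window holds CACGTG once, with its first base 130 bases before the start, and the window nearest the annotated gene start holds neither motif. Across the 14 windows of the 9 genes, 2 held CACGTG and 4 held TGGGAA. Of all 32851 such windows, 6.02% and 21.6% did. The windows with TGGGAA belong to Fcer2a and Rbpj only. Those of Rbpj (chr5:53590096-53590345 and chr5:53590236-53590485) overlap and share 1 TGGGAA site, so windows are not independent. The second CACGTG lies before Adam10. A match describes letters only.

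Among the 5 genes most like Adam19 by Pearson correlation of log2 CPM over the 7 libraries, among 6295 genes with a mean of at least 10 CPM, were Exosc8 (r = 0.99), Trappc4 (0.99), Rnf187 (0.96) and Rbm43 (0.95). These 4 were highest in MIZ1KO replicate 2: Exosc8, a subunit of the RNA exosome, reached 55.9 CPM there and 31.3 to 41.0 CPM elsewhere, and Trappc4, a vesicle tethering subunit, 22.9 CPM against 7.72 to 12.9 CPM. None of the 4 passed the test between groups (adjusted p from 0.184 to 0.311, edgeR). The 7 libraries share their groups and depth, so r is a description.

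Adam10, the sheddase of CD23 and Notch, overlapped between the groups. It measured 37.9, 45.9 and 39.3 CPM in MIZ1KO and 40.8, 37.8, 39.9 and 43.0 CPM in Control. The libraries of the groups interleaved, and the log2 fold change was 0.02 ± 0.21 (SE). Adam17, the TNF-converting enzyme, measured 78.0, 81.8 and 69.3 CPM in MIZ1KO and 92.3, 88.7, 93.8 and 69.1 CPM in Control, a log2 fold change of -0.17 ± 0.20. Control replicate 4 was the lowest of all 7, and 3 of 4 Control libraries lay above every MIZ1KO library. Neither gene passed the test. Adam10 lies on chromosome 9 from 70678997 to 70780229, and Adam17 on chromosome 12 from 21323509 to 21373632, where Iah1 and Gm22766 overlap it.

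Adam8, a protease typical of myeloid cells and activated leukocytes, and Adam15, which carries an integrin-binding RGD motif in human, were close to the detection limit. Adam8 had 1 to 8 counts per library, at 0.107, 0.799 and 0.804 CPM in MIZ1KO and 0.393, 0.933, 0.787 and 0.100 CPM in Control. Adam15 had 0 to 8 counts: 0.645, 0 and 1.13 CPM in MIZ1KO, and 1.05, 0, 0.394 and 0.200 CPM in Control. For the libraries at 0, a count of 3 would have been 0.300 CPM in MIZ1KO replicate 2 and 0.467 CPM in Control replicate 2. Both genes spanned the same range in both groups, and no difference was detectable at this depth. Adam8 lies on chromosome 7 from 139978932 to 139992562 and Adam15 on chromosome 3 from 89338542 to 89349996.

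Fcer2a was the most abundant of the 9 per exonic length. It measured 265, 251 and 303 CPM in MIZ1KO and 232, 257, 247 and 259 CPM in Control. The groups overlapped, with MIZ1KO replicate 3 highest and Control replicate 1 lowest, and the log2 fold change of 0.14 ± 0.20 (SE) did not pass the test. Its mean of 83.8 CPM per kb of exon stood at percentile 97.6 of the 9812 protein-coding genes tested. The naive follicular B cell list of 11 genes, which holds Fcer2a itself, summed to between 699 and 847 CPM in MIZ1KO and between 751 and 924 CPM in Control, with Ighd, the IgD heavy chain, at 52.9 to 98.5 CPM; the part of follicular B cells in the Fcer2a level was not tested. Cr2, which encodes the CD23 partner CD21 and was named after its values were seen, measured 172, 236 and 163 CPM in MIZ1KO and 197, 206, 223 and 199 CPM in Control (log2 fold change -0.11 ± 0.20).

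Fcer2a (ENSMUSG00000005540) lies on chromosome 8 from 3681737 to 3694175 on the minus strand, and 2 of its 3 RefSeq starts have TGGGAA in the 250 bases before them. Its window with a pair of matches is shown beside the window of Rbpj with a pair, since these are the members in which the letters read by RBPJ were found; capitals mark TGGGAA or its reverse complement.
Fcer2a, chr8:3690862-3691111, minus strand: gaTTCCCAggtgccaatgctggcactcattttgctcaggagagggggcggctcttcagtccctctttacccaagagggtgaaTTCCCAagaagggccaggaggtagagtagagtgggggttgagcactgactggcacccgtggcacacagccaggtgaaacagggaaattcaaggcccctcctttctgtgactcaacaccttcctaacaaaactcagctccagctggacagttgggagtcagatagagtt
Rbpj, chr5:53590096-53590345, plus strand: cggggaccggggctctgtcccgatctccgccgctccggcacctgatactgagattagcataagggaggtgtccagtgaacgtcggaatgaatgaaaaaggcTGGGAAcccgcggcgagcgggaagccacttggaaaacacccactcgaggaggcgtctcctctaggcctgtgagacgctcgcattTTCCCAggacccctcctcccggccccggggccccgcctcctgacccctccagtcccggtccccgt
In Fcer2a the matches begin 248 and 168 bases before the start, and in Rbpj 149 and 65 bases before it. No window of Notch1, Notch2, Adam8, Adam15 or Adam17 held either motif.

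The genes most like Fcer2a over the 7 libraries were Ssh1 (r = 0.97), Sh2d3c (0.96), Gpatch4 (0.95), Mark2 (0.95) and Rmrp (0.95). Each was highest in MIZ1KO replicate 3 and lowest in Control replicate 1, as was Fcer2a. Ssh1, the cofilin phosphatase slingshot, measured 34.7 CPM in that MIZ1KO library and 13.4 CPM in that Control library. None of the 5 passed the test between groups (adjusted p from 0.0694 to 0.577, edgeR).

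Notch2, the receptor of the marginal zone fate, had separate groups without passing the test. It measured 46.1, 45.8 and 52.4 CPM in MIZ1KO and 30.2, 31.1, 38.8 and 35.8 CPM in Control, means of 48.1 ± 3.77 (SD, n = 3) and 34.0 ± 4.07 (SD, n = 4). All 3 MIZ1KO libraries lay above all 4 Control libraries, and the log2 fold change was 0.50 ± 0.21 (SE) with an adjusted p of 0.155 in edgeR. Over 18 alternatives it stayed between 0.34 and 0.87, with adjusted p-values from 0.124 to 0.311. The 0.34 came from the deposited log2 values, which are on a different, transformed scale. Notch1 was low and scattered: 4.80, 2.71 and 14.2 CPM in MIZ1KO and 2.97, 0.622, 4.47 and 5.42 CPM in Control, on 4 to 88.4 counts per library. MIZ1KO replicate 3 stood above the other 6 libraries, which overlapped, and the log2 fold change of 0.91 ± 0.58 did not pass. Notch1 is also a receptor of T cells. The T cell markers without Lck summed to 4.41, 18.1 and 29.4 CPM in MIZ1KO replicates 1 to 3, with 9 of the 14 markers highest in replicate 3 and 4 in replicate 2, where Notch1 was lowest of the MIZ1KO libraries; the part of T cells was not tested. Notch2 lies on chromosome 3 from 98013527 to 98150361 and Notch1 on chromosome 2 from 26457903 to 26516663.

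Rbpj, the DNA-binding partner of the Notch intracellular domain, was lower on average in MIZ1KO without passing the test. It measured 18.4, 18.3 and 24.6 CPM in MIZ1KO and 22.5, 42.9, 28.1 and 39.5 CPM in Control. Control replicate 1 lay within the MIZ1KO range and the other 3 Control libraries above it. The means were 20.4 ± 3.62 and 33.3 ± 9.55 CPM, and the log2 fold change was -0.72 ± 0.27 (SE) with an adjusted p of 0.115 in edgeR. Without Control replicate 1 the gene was called lower (log2 fold change -0.87, adjusted p = 0.0352), and over all 18 alternatives the value ran from -0.87 to -0.22. Rbpj lies on chromosome 5 from 53466152 to 53657362, and processed pseudogenes of it in the annotation can share its reads.

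Per exonic length, which lets genes be compared, the order of mean levels over the 7 libraries was Fcer2a, Adam17, Adam10, Notch2, Rbpj, Adam19 and Notch1. The order of Rbpj and Adam19 differed between the groups: in MIZ1KO the mean level of Adam19 was 3.18 ± 2.56 CPM per kb (SD, n = 3) and that of Rbpj 1.60 ± 0.284, while in Control these were 0.946 ± 0.371 (SD, n = 4) and 2.61 ± 0.749. The other neighbours kept their order of means in both groups. Adam17 lay between 9.65 and 13.1 CPM per kb and Adam10 between 7.69 and 9.33, so these neighbours did not overlap. Notch2 ranged from 2.80 to 4.86 CPM per kb and Rbpj from 1.43 to 3.36, with overlap. Adam19, from 0.493 to 6.14, overlapped Rbpj as well as Notch1, which ran from 0.0437 to 0.999. Notch2 exceeded Notch1 in every library. Means of Adam8 and Adam15 were 0.121 and 0.0794 CPM per kb, below those of the 7 tested genes. Pairwise Pearson correlations of log2 CPM among the 7 tested genes (21 pairs over 7 libraries) spanned -0.75, between Adam17 and Fcer2a, to 0.73, between Fcer2a and Notch2.

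**Figure D3:**
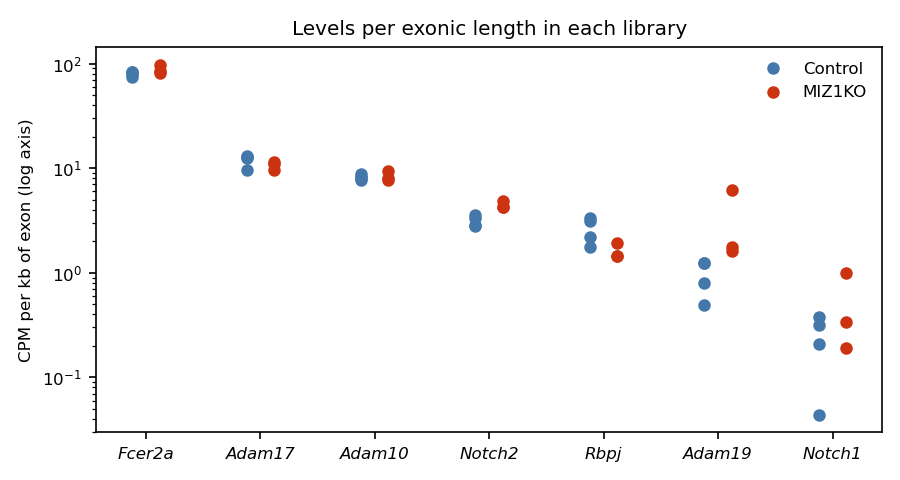
CPM per kb of exon of the 7 tested genes in each library on a log axis, Control in blue and MIZ1KO in red. Fcer2a has a mean of 83.8 CPM per kb, the proteases Adam17 and Adam10 between 7.69 and 13.1, and Notch1 lowest.

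Around these genes, 9 lists held 175 further genes of ADAM and Notch biology, of which 102 were tested. In edgeR 2 of the 102 rose, Dtx1 and Ccnd3, and 2 fell, Cr1l and Adam4, where 1.9% and 4.05% of all tested genes were called higher and lower. At an unadjusted p under 0.05, 13 of the 102 were higher and 6 lower, against 9.92% and 14.7% of all tested genes. Of the 102, 69 had a log2 fold change above 0 (67.6%), against 47.7% of all tested genes and 52.5% of protein-coding ones. The median was 0.15 against -0.03 and 0.03. DESeq2 called 7 higher and 2 lower, against 3.53% and 5.4% of all tested genes, and limma-voom 2 and 1, against 1.09% and 1.85%. The same shares of all tested genes apply to each list below. As the lists were written with earlier results of these data known, nothing is read from their counts.

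**Figure D4:**
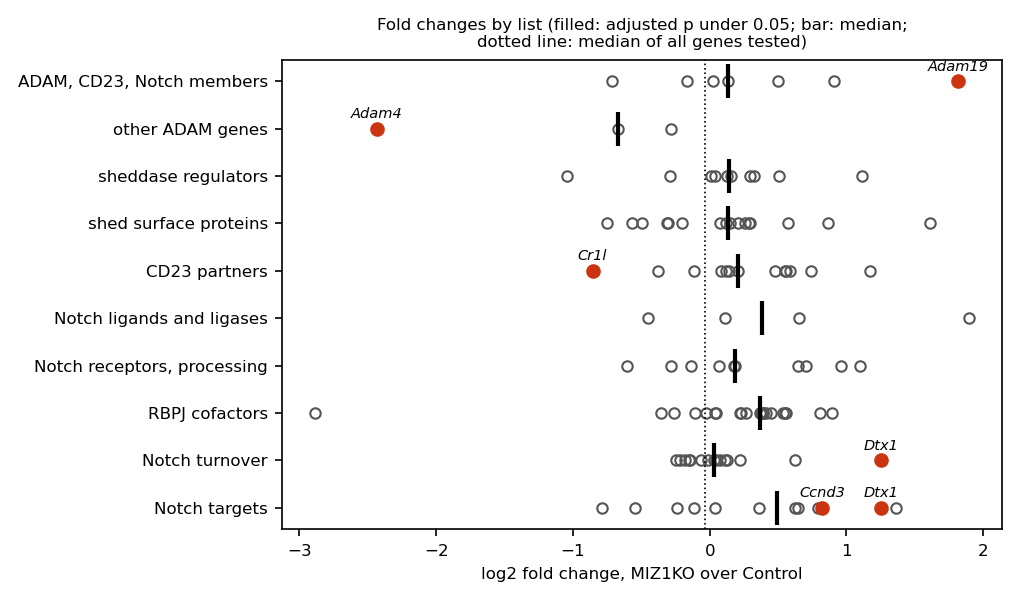
Log2 fold change of MIZ1KO over Control for each tested gene of the 9 genes and the 9 lists, with a bar at the list's median and filled points where the adjusted p was under 0.05. The filled points are Adam19, Adam4, Cr1l, Ccnd3 and Dtx1, the last in 2 lists, and the dotted line is the median of all tested genes at -0.03.

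Dtx1, which encodes Deltex1, a ubiquitin ligase that acts on Notch and is itself a known Notch target, rose in MIZ1KO. It measured 51.4, 37.5 and 76.7 CPM in MIZ1KO and 16.8, 25.7, 26.2 and 23.3 CPM in Control. The groups did not overlap, and the log2 fold change was 1.25 ± 0.26 (SE) with an adjusted p of 0.0150 in edgeR. Omitting MIZ1KO replicate 1 gave 1.35 (adjusted p = 0.0669) and omitting MIZ1KO replicate 3 gave 0.96 (adjusted p = 0.0656), both above the threshold and so not called, and the call held in 16 of 18 alternatives. With the TEC share as a covariate the value was 2.11. Dtx1 is also a marker of marginal zone B cells; that list of 9 genes, Dtx1 included, summed to between 307 and 345 CPM in MIZ1KO and between 285 and 336 CPM in Control. Deltex1 is expressed in T cells too. The summed T cell markers were higher in MIZ1KO, at 44.8 to 60.3 against 26.8 to 33.2 CPM. Without Lck they summed to 4.41, 18.1 and 29.4 CPM in MIZ1KO replicates 1 to 3 and 0.525 to 2.41 CPM in Control. The part of T cells in the Dtx1 result was not tested. Dtx1 (ENSMUSG00000029603) lies on chromosome 5 from 120680202 to 120711927 on the minus strand, and the 250 bases before its RefSeq start, shown because it is the called Notch target with the largest change, hold neither TGGGAA nor CACGTG.
Dtx1, chr5:120711670-120711919, minus strand: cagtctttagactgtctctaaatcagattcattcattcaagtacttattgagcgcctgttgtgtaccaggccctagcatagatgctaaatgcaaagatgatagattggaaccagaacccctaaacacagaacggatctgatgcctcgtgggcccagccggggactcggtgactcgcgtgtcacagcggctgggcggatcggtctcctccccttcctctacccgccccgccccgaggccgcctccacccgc

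Among 25 genes known as Notch targets in lymphocytes, 12 were tested. Dtx1 and Ccnd3 rose (2 of 12) while 0 fell in edgeR, against 1.9% and 4.05% of all tested genes. At an unadjusted p under 0.05, 2 were higher and 1 lower, against 9.92% and 14.7%. DESeq2 and limma-voom also called 2 higher and 0 lower. Of all tested genes, DESeq2 called 3.53% higher and 5.4% lower, and limma-voom 1.09% and 1.85%. Ccnd3, the D-type cyclin of germinal centre B cells, measured 135, 111 and 123 CPM in MIZ1KO and 91.1, 58.2, 65.4 and 63.9 CPM in Control, without overlap (log2 fold change 0.82 ± 0.20, adjusted p = 0.0265, edgeR). Its call ended without any 1 of MIZ1KO replicates 1 and 3 and Control replicates 2 and 4 (adjusted p from 0.0672 to 0.133), and with the TEC covariate (0.44, adjusted p = 0.485). Bcl2a1b, a BCL2-family survival gene with near-identical copies, measured -0.79 ± 0.27, Hes6, a HES-family factor, 0.64 ± 0.34 and Tcf7, a T lineage factor, 1.37 ± 0.75 on the log2 scale. None of these last 3 passed. The list's median log2 fold change was 0.49, against -0.03 for all tested genes.

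RBPJ cofactors had 16 of 21 tested genes above 0, where 47.7% of all tested genes and 52.5% of protein-coding ones were. Their median log2 fold change was 0.37, against -0.03 and 0.03. None passed in edgeR. At an unadjusted p under 0.05, 3 were higher and 1 lower, against 9.92% and 14.7% of all tested genes. DESeq2 called 2 higher and 0 lower, against 3.53% and 5.4%, and limma-voom 0. Spen, a corepressor gene, measured 132, 52.2 and 150.3 CPM in MIZ1KO and 46.7, 57.7, 78.4 and 56.6 CPM in Control. MIZ1KO replicate 2 lay within the Control range and the other MIZ1KO libraries above it. The log2 fold change of Spen was 0.89 ± 0.28 (adjusted p = 0.0686, edgeR), and its model overlaps that of Zbtb17. Ctbp2, on 0 to 15 counts, measured -2.89 ± 1.03 without passing.

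Of the receptors and their processing enzymes, 10 of 14 listed genes were tested, and none passed in edgeR, DESeq2 or limma-voom, nor at an unadjusted p under 0.05 in edgeR. The Fringe glycosyltransferases Mfng and Rfng, which tune the response to ligand, measured 0.70 ± 0.34 and 0.96 ± 0.50 on the log2 scale, and the glucosyltransferase Poglut1 measured -0.61 ± 0.34. Of 12 ligand and ligase genes only 4 were tested, and none passed in edgeR, DESeq2 or limma-voom, with 1 higher at an unadjusted p under 0.05. This was Neurl1b, a ubiquitin ligase for Notch ligands, on 5 to 37 counts per library. It measured 3.12, 3.70 and 3.22 CPM in MIZ1KO and 0.787, 1.56, 0.919 and 0.501 CPM in Control, without overlap. Its log2 fold change was 1.90 ± 0.58 (adjusted p = 0.0599, edgeR). The ligand gene Dll1 measured 0.65 ± 0.79 and the ligase gene Neurl3 -0.45 ± 0.24. In the turnover list 1 of 15 tested genes rose, Dtx1, and 0 fell in edgeR, DESeq2 and limma-voom. In edgeR 1.9% of all tested genes were called higher and 4.05% lower. Dtx3l, another Deltex ligase, measured 0.63 ± 0.23 without passing. Cdk8 and Fbxw7, which act in the phosphorylation and ubiquitination of the Notch intracellular domain, measured -0.25 ± 0.24 and -0.15 ± 0.20 without passing.

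The list named CD23 partners held Cr2 together with other receptor, signalling and regulator genes, so membership does not mean binding to CD23. Its 13 genes were all tested, and 1 fell and 0 rose in edgeR, against 4.05% and 1.9% of all tested genes. At an unadjusted p under 0.05, 5 were higher and 1 lower, against 9.92% and 14.7%. DESeq2 called 2 higher and 1 lower, against 3.53% and 5.4%. The limma-voom fit called 0 higher and 1 lower, against 1.09% and 1.85%. Cr1l, which encodes the complement regulator Crry, fell. It measured 62.6, 57.8 and 69.2 CPM in MIZ1KO and 109, 105, 123 and 121 CPM in Control, with a wide gap between the groups (log2 fold change -0.86 ± 0.19, adjusted p = 0.0189, edgeR). That call was lost when MIZ1KO replicate 1 was omitted (-0.80, adjusted p = 0.131), likewise for MIZ1KO replicate 2 (-0.73, 0.0604) and Control replicate 4 (-0.78, 0.0808), and with the TEC covariate (-0.62, 0.245). The IgM receptor gene Fcmr, the kinase gene Jak1 and the tetraspanin gene Cd81 measured 0.59 ± 0.21, 0.48 ± 0.19 and 0.56 ± 0.22 without passing.

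Among 24 other ADAM genes only 3 were tested. Adam4, a gene known from testis, fell on 1 to 45 counts per library, at 0.107, 0.999 and 0.643 CPM in MIZ1KO and 3.80, 1.71, 2.49 and 4.51 CPM in Control (log2 fold change -2.43 ± 0.71, adjusted p = 0.0490, edgeR). It lies on chromosome 12 from 81419443 to 81421946 within the models of Cox16 and Gm20498, whose reads may be counted with it. The call ended in 16 of 18 alternatives, among them without each MIZ1KO library (adjusted p from 0.0664 to 0.233) and without Control replicate 2, 3 or 4 (0.0651 to 0.145). Adam9 measured -0.29 ± 0.25 and Adam22, which lacks protease activity, -0.67 ± 0.69, and neither passed.

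The 10 tested regulators of the sheddases had a median log2 fold change of 0.14, and none passed in edgeR, DESeq2 or limma-voom, with 1 lower at an unadjusted p under 0.05. That 1 was Tspan5, a tetraspanin that escorts ADAM10, at -1.05 ± 0.41 on the log2 scale; the sorting nexin gene Snx33 measured 1.12 ± 0.68 and Frmd8, a partner of the iRhoms, 0.51 ± 0.35. Of 16 tested genes for surface proteins known to be shed, none passed in edgeR or limma-voom, 1 was higher in DESeq2, and at an unadjusted p under 0.05 in edgeR 1 was higher and 1 lower. Fas, the death receptor, measured -0.57 ± 0.24 and Alcam, an adhesion molecule, -0.50 ± 0.28, without passing.

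**Figure D5:**
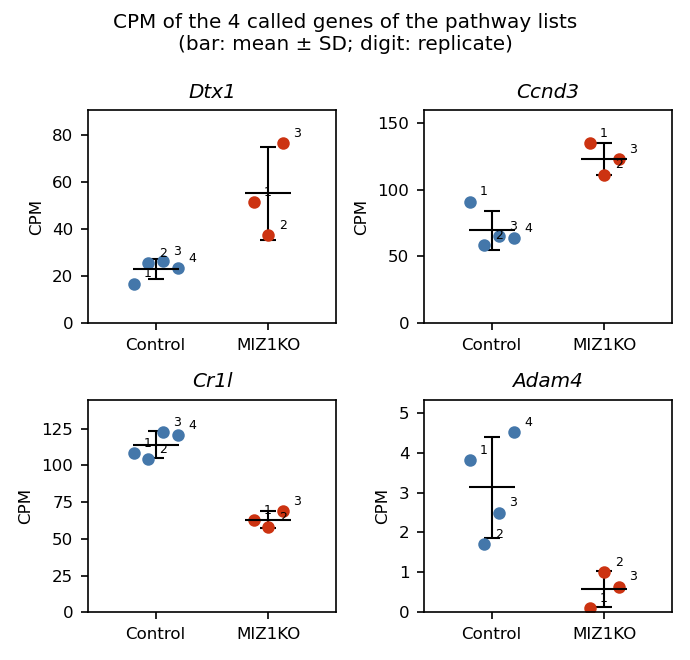
CPM in every library of Dtx1, Ccnd3, Cr1l and Adam4, which passed an adjusted p of 0.05 in edgeR, with Control in blue, MIZ1KO in red, mean ± SD in black and the replicate number beside each point. The groups do not overlap in any of the 4 genes, which were picked by their call on these same libraries. Of all tested genes, 19.5% had groups without overlap.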

How the data were processed

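Bulk RNA sequencing covered 3 MIZ1KO and 4 Control samples, grouped by the genotype label. The authors deposited expected counts per gene, without normalization, and a second table of log2 values, named as variance stabilised, whose function the sources used here do not give. The submitters' processing notes name, with no role, STAR 2.5.2, RSEM 1.3.0, DESeq2 1.18.1, R 3.4.3 and the GRCm38 build. Annotation release and strand setting are not given, so overlapping and near-identical genes are uncertain. Ribosomal RNA took 46.4% to 56.1% of the counts.

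Expected counts (6.61% not whole) were rounded. Symbols, positions and exonic lengths came from GENCODE vM21, where 48435 of 48795 identifiers matched. Genes were filtered with filterByExpr, scaled by TMM and compared across all 11618 genes tested by edgeR 4.0.16 (glmQLFit and glmQLFTest, current fit, robust, two-sided, Benjamini-Hochberg) in R 4.3.3. The procedure was tested on simulated data. SEs came from the fold change and F. log2 CPM used a prior count of 2. Alternatives used DESeq2 1.42.0, limma 3.58.1 (also on the deposited log2 values), other scalings, filters, gene classes, a replicate block, the TEC share and the omission of each library.

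The members and lists were chosen with earlier results of these data known. All members were described; in each list every called gene and up to 3 more with the smallest p were named, and for Adam19 and Fcer2a the 5 most correlated genes. Promoter sequences are RefSeq's (GRCm38.p6); all 9 members matched. Some genes that the naming rule takes are not reported here.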

Additional observations from a re-analysis of the deposited data

Results flagged for a closer look

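Among the Control libraries of the genes named in the text, 1 value stood apart from the other 3 in the same group: Alcam at 46.1 CPM in Control replicate 3, where the other Control libraries lay between 31.5 and 34.0 CPM. Its gap to the nearest library, as a share of the group's range, was just above the critical value for 4 libraries. Chance alone flags about 1 in 20 groups, and 39 genes were checked.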

How the results depend on the processing

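Each of 18 alternatives was run on the 9 genes and the pathway lists. The number of the 9 genes called higher, 1 as reported, was 0 with limma-voom, the deposited log2 values, the replicate block and the TEC share as a covariate, and 0 to 1 when each library was left out. Adam19 measured 1.33 with the replicate block (adjusted p = 0.0566, edgeR) and 1.69 with limma-voom (adjusted p = 0.0667). The number called lower, 0 as reported, was 0 to 1 when each library was left out, the 1 being Rbpj without Control replicate 1. Adam10, near 0 as reported (0.02), changed sign to -0.0060 when the fit was limited to protein-coding genes, and ran from -0.011 (Control replicate 2 omitted) to 0.13 (MIZ1KO replicate 1 omitted), with -0.0044 when MIZ1KO replicate 2 was omitted. Adam17, Fcer2a, Notch1 and Notch2 kept their direction and did not pass in any of the 18, though Notch1 ran from 0.08 to 2.97.

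Pathway genes called higher, 2 as reported, numbered 7 with DESeq2 (Ccnd3, Dtx1, Fcmr, Jak1 and Spen among them), 4 with relative log expression scaling, 4 without ribosomal RNA genes, and 0 to 5 when each library was left out. With the replicate block they numbered 3, Ccnd3 and Dtx1 among them. Those called lower, 2 as reported, numbered 1 in the legacy fit, limma-voom, the deposited log2 values, relative log expression scaling, library totals, no filter, without ribosomal RNA genes, protein-coding genes only and the replicate block, and 0 to 2 when each library was left out; Cr1l was the 1 that stayed in all of these 9 fits. With the TEC covariate the numbers were again 2 and 2, but the genes were Dtx1 and Spen higher and Bcl2a1b and Tspan5 lower. Over all genes, 692 of 11618 were called as reported. DESeq2, whose fit held 19755 genes, called 1085. The limma-voom fit called 342, the fit of protein-coding genes 315 and the fit with the TEC covariate 297. With each library left out the number ran from 39 (MIZ1KO replicate 1 omitted) to 1350 (Control replicate 1 omitted). The median log2 fold change moved by -0.12 with DESeq2 and -0.11 with no filter, but those medians cover 19755 genes and the reported one 11618. They are thus medians of different sets of genes, and how far this accounts for the shifts was not tested. The labels link same-numbered samples of the groups by the number alone, and whether these are pairs is not known. Their deviations correlated at 0.02, 0.07 and 0.16. MIZ1KO replicates 1 and 3 correlated best with the Control library of their own number, and replicate 2 with Control replicate 1. Depth limits Adam8, Adam15, Notch1, Adam4, Ctbp2, Neurl1b, Snx33, Dll1 and Adam22, among others, which rest on few counts.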
